A study of Mus musculus with 21 samples.

Results

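The comparison described is that between embryoid bodies carrying a dimer of TWIST1 and TCF12 and embryoid bodies carrying TWIST1 alone. It was chosen by the sample titles, which give 3 dimer samples and 3 monomer samples out of 21 in the series, and it covers every gene with enough counts to test, 14311 of the 48321 symbols in each table. TWIST1 belongs to the basic helix-loop-helix family of transcription factors, which bind short DNA motifs called E-boxes (CANNTG) as pairs. TWIST1 can pair with itself or with one of the widely expressed E-proteins, which are encoded by Tcf3, Tcf4 and Tcf12. TWIST1 is best known for its part in forming cranial mesenchyme and for driving the epithelial to mesenchymal transition, in which cells lose their junctions and become motile. Id proteins, which have no DNA-binding region, sequester E-proteins.

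All lines came from A2loxCre mouse embryonic stem cells, labelled C57BL/6, in which a coding sequence is integrated behind a promoter that doxycycline switches on. The embryoid bodies, free-floating aggregates of differentiating cells, were collected on day 3, 16 h after induction. The TCF12 dimer group carried the Twist1-Tcf12 dimer construct and received doxycycline. The monomer group carried the Twist1 monomer construct and received doxycycline. The groups used for reference were the homodimer, TCF3 dimer and TCF4 dimer lines with doxycycline, the monomer line without doxycycline, and the parental A2loxCre line, which has no construct but received doxycycline, each with 3 samples. Each construct was carried by 1 line as far as the labels tell, so the construct and the line that carries it cannot be told apart. The labels do not say whether the samples came from separate cultures, so p-values measure the spread between these samples, which may be technical.

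The 3 dimer libraries held 11028711 to 12138654 counts and the 3 monomer libraries 8913574 to 9398646, within the range of 6648842 to 15999693 over all 21. Dimer sample 1 stood apart from dimer samples 2 and 3 by transcript length. Among the tenth of genes with the shortest transcripts (median exon length 1071 bases), it lay a median of 0.78 log2 units above the other 2 dimer samples. Among the tenth with the longest (12459 bases) it lay 0.74 below them. The rank correlation of this deviation with length was -0.575, against -0.26 to 0.281 in the 18 libraries of the other groups. Ribosomal protein genes, which are short, summed to 166200 CPM (counts scaled to the effective library size with TMM factors) in dimer sample 1, to 72910 and 67390 in samples 2 and 3, and to 71020 to 76940 in the monomer. The model was therefore fitted to all 21 samples and again with dimer sample 1 left out (20 samples). Counts over lists are given from both fits. The log2 fold change of a single gene is from the 21 samples, and the value without dimer sample 1 is added at least where it moved the fold by over 1.5 times or changed whether the gene passed. A gene is said to pass at a Benjamini-Hochberg adjusted p under 0.05 in the quasi-likelihood test of edgeR, and to have risen or fallen when it passed in the same direction in both fits.

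**Figure D1:**
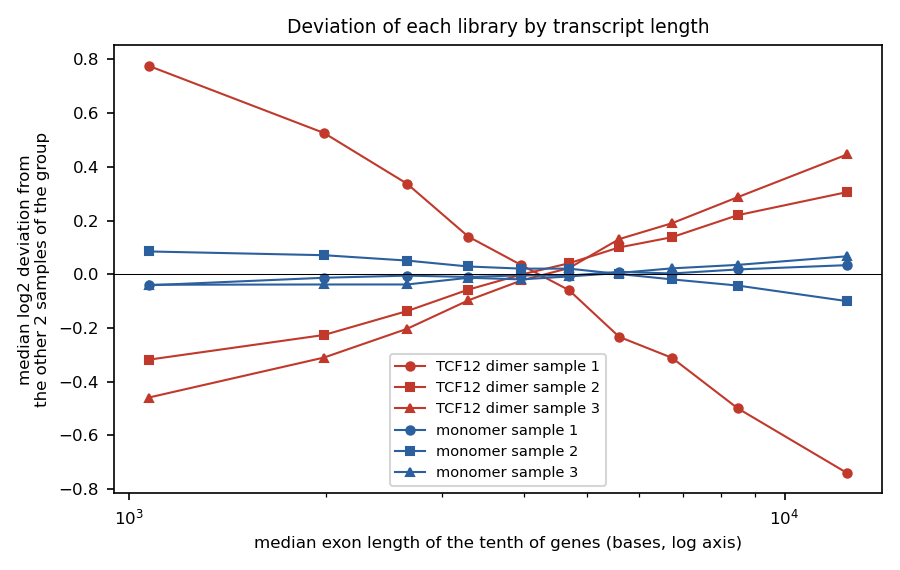
Median log2 deviation of each dimer library (red) and monomer library (blue) from the other 2 libraries of its group (vertical axis) for 10 equal groups of genes ordered by exon length (horizontal axis, bases, log scale). Dimer sample 1 falls from 0.776 in the shortest genes to -0.74 in the longest, dimer samples 2 and 3, whose comparison includes sample 1, run the other way, and the monomer libraries stay near 0.

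The construct genes were examined first. Twist1 stood at 39.5, 48.3 and 39.0 CPM in dimer samples 1 to 3 and at 647, 607 and 585 CPM in the monomer. The dimer samples were all far below the monomer samples, with a log2 fold change of -3.86 ± 0.10 (SE; edgeR adjusted p = 8.51e-15, -3.80 without dimer sample 1). Both groups lay above the parental line at 8.11 ± 0.79 CPM and the uninduced monomer line at 5.07 ± 0.63 CPM (SD, n = 3). Twist1 was thus present above the parental level in the dimer line, at a 14.5-fold lower transcript level than in the monomer line. The groups therefore differ in the Twist1 transcript level as well as in the partner. Counts per symbol do not separate construct RNA from endogenous RNA, so the amount of construct RNA was not measured.

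Tcf12 gave 53.2, 118 and 108 CPM in the dimer and 68.5, 57.5 and 64.1 CPM in the monomer. Dimer sample 1 was the lowest of the 6 and dimer samples 2 and 3 were the highest, so the groups overlapped. The log2 fold change was 0.56 ± 0.19 (edgeR adjusted p = 0.0274) with all samples and 0.84 without dimer sample 1 (adjusted p = 1.73e-09). Tcf12 was about as abundant in the TCF3 dimer (104 ± 15 CPM) and the TCF4 dimer (90.4 ± 4.8 CPM), so counts of this symbol do not single out the TCF12 construct. Tcf4 was at 34.4, 56.2 and 58.2 CPM in the dimer against 36.1 to 41.1 in the monomer (0.39 on the log2 scale, adjusted p = 0.0484, and 0.60 without dimer sample 1, adjusted p = 3.15e-06). Tcf3 did not pass, at 166 to 190 CPM in the dimer and 148 to 178 CPM in the monomer (adjusted p = 0.409). In the other dimer lines, Tcf4 averaged 330 ± 23 CPM in the TCF4 dimer and Tcf3 154 ± 4.5 CPM in the TCF3 dimer (SD, n = 3). Tcf12 thus showed no rise in the TCF12 dimer as large as that of Tcf4 in the TCF4 dimer. The partner in the TCF12 dimer line therefore rests on the sample titles. Pou5f1, the pluripotency factor Oct4, was present at 494 to 770 CPM in the dimer and 521 to 603 CPM in the monomer (passing only without dimer sample 1, at -0.16). The epithelial cadherin Cdh1 was at 621 to 949 and 744 to 780 CPM, so both groups held the pluripotent and epithelial transcripts of early embryoid bodies.

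With all samples 4799 genes passed, 33.5% of those tested, 2587 of them higher in the dimer (18.1%) and 2212 lower (15.5%). Without dimer sample 1 the count was 6119 of 14423 (42.4%, with 3216 higher, 22.3%, and 2903 lower, 20.1%). Both fits shared 4162 genes in the same direction, 2138 that rose and 2024 that fell, and no gene passed in opposite directions. Past a 2-fold change, 1362 genes passed with all samples (9.52%, with 712 higher, 4.98%, and 650 lower, 4.54%) and 1373 without dimer sample 1 (731 higher, 5.07%, and 642 lower, 4.45%). The passing set changed its length profile: the higher genes had a median exon length of 4238 bases with all samples and 5433 bases without dimer sample 1, while the lower genes had 4835 and 4070 bases. All tested genes had medians of 4320 and 4313 bases. The higher genes were thus longer than tested genes in the fit without dimer sample 1, and the cause was not tested. These shares, and the median log2 fold change of all genes of 0.05 (0.01 without dimer sample 1), are the background against which each gene list is to be read. Because the lists were chosen with earlier results of these data known, their counts are not independent support. In bulk samples such as these, fewer cells of a type and less RNA per cell cannot be told apart.

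The 12 largest rises, chosen for being at least 5 CPM on average in the dimer, were Bhlhe22, Gdf10, Hand1, Zic1, Tmem132c, Slc1a2, Tril, Serpinf1, Isl1, Cygb, Fli1 and Cplx2, with log2 fold changes from 5.91 to 3.89. The 12 largest falls, chosen in the same way, included Aqp8, Klb, Mia2, Twist1, Cubn, Slco2a1, Spock1, Nrg2, Plet1, Nostrin and Gata6, from -4.42 to -3.65. By the choice, none of these 24 had overlapping groups, which was true of 36.4% of all tested genes.

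Because the factors compared bind E-boxes, the 250 bases before the annotated start are shown for 3 of the rises and 1 of the falls. They are from RefSeq on GRCm38.p6, 5′ to 3′ on the strand of the gene, with each CANNTG in capitals. The windows are chr9:91365769-91366018 for Zic1, chr6:53820826-53821075 for Tril, chr11:75422624-75422873 for Serpinf1 and chr2:13491877-13492126 for Cubn, all on the minus strand.

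Zic1: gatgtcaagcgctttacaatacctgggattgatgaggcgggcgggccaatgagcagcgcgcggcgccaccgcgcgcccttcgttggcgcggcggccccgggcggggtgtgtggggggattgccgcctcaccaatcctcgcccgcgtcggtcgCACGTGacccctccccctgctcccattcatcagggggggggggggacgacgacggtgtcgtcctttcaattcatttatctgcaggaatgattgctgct
Tril: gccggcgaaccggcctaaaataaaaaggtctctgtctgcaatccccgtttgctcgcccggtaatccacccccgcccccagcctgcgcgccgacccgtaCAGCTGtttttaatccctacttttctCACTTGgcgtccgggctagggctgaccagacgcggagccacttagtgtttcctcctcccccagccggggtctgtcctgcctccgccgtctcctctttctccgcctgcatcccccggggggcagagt
Serpinf1: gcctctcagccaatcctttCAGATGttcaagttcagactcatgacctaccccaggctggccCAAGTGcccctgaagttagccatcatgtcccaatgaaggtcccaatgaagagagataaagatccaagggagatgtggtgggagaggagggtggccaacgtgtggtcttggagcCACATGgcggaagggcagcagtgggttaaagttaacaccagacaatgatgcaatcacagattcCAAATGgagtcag
Cubn: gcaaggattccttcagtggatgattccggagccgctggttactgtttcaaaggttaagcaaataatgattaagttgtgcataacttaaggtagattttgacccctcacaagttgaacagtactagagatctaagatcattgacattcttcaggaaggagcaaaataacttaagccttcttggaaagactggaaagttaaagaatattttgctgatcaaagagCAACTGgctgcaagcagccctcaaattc

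Zic1 holds 1 E-box, Tril 2, Serpinf1 4 and Cubn 1. CANNTG, which reads the same on both strands, occurred in the window of 6 of the 8 rises that have one in the table (75.0%) and of 5 of the 9 falls (55.6%), against 66.0% of all 27025 genes. CAGATG or its complement CATCTG, which overlaps CANNTG, occurred in 1 of 8 and 1 of 9, against 14.5%. A pair of CANNTG motifs with 5 bases between them occurred in none of them and in 0.651% of all genes. These are matches of letters within 250 bases and no more, and neither set departs far from all promoters.

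Of the 12 largest rises, Bhlhe22 and Hand1 encode basic helix-loop-helix factors. Bhlhe22, a neural repressor of this family, was at 20.7, 15.6 and 12.8 CPM in the dimer and at 0, 0.338 and 0.43 CPM in the monomer (log2 fold change 5.91 ± 0.44, edgeR adjusted p = 7.42e-09). Hand1, a regulator of heart and extra-embryonic mesoderm, was at 16.8, 10.0 and 5.08 CPM and at 0.341, 0.225 and 0.215 CPM (5.27 ± 0.59, adjusted p = 1.4e-06, 4.81 without dimer sample 1). Every dimer sample of both genes lay far above every monomer sample, although the dimer samples themselves differed by over 3-fold for Hand1. A monomer value of 0 allows up to 0.319 to 0.337 CPM (3 counts of the total), so the folds of genes this low in the monomer are approximate. Hand2, the close relative of Hand1, was at 4.20, 1.48 and 1.78 CPM against 0.114, 0 and 0, and it rose. Of the 12 factors of this family listed, 7 had enough counts to test. Of these, 4 passed as higher and 1 as lower in either fit, with a median of 1.06 (1.10 without dimer sample 1). Over all genes 18.1% and 15.5% did (22.3% and 20.1% without that sample). Hand1, Hand2, Bhlhe22 and Tal1, the last a blood and endothelial factor at 7.45 to 8.20 against 3.38 to 4.21 CPM, rose. Bhlhe22 and Hand1 were already picked as 2 of the 12 largest rises, so the count of 4 is not independent of that choice. Tcf15, a factor of somites and of cells leaving pluripotency, fell from 34.8 to 43.1 CPM down to 12 to 25.4 CPM.

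The other large rises were of mixed function. Gdf10, a secreted factor of the TGF-beta family, was at 8.60, 7.63 and 4.60 CPM in the dimer and 0, 0.113 and 0.215 CPM in the monomer. Zic1, a zinc finger factor of neural and mesodermal progenitors, was at 15.8, 23.1 and 15.8 CPM and at 1.02, 0.563 and 0.645 CPM (4.60 ± 0.27, edgeR adjusted p = 2.64e-10). Serpinf1, which encodes the secreted factor PEDF, was at 85.1, 42.2 and 33.6 CPM against 2.84, 3.26 and 3.12 CPM. For each of these, the lowest dimer sample was above the highest monomer sample by 10-fold or more. Tril, a modulator of Toll-like receptor signalling, was at 53.5, 55.7 and 43.9 CPM against 3.41, 2.48 and 2.26 CPM. Isl1, a LIM homeodomain factor of cardiac progenitors and motor neurons, was at 5.98, 5.00 and 5.00 against 0.455, 0.45 and 0 CPM. Fli1, an ETS factor of blood and endothelium, was at 5.35, 5.99 and 4.28 against 0.569, 0.45 and 0 CPM. None of the 3 dimer samples approached the monomer range in these genes. Cygb (a globin, log2 fold change 3.98, and 3.43 without dimer sample 1), the glutamate transporter gene Slc1a2 (4.26), Tmem132c (4.40) and the synaptic gene Cplx2 (3.89) complete the 12.

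**Figure D2:**
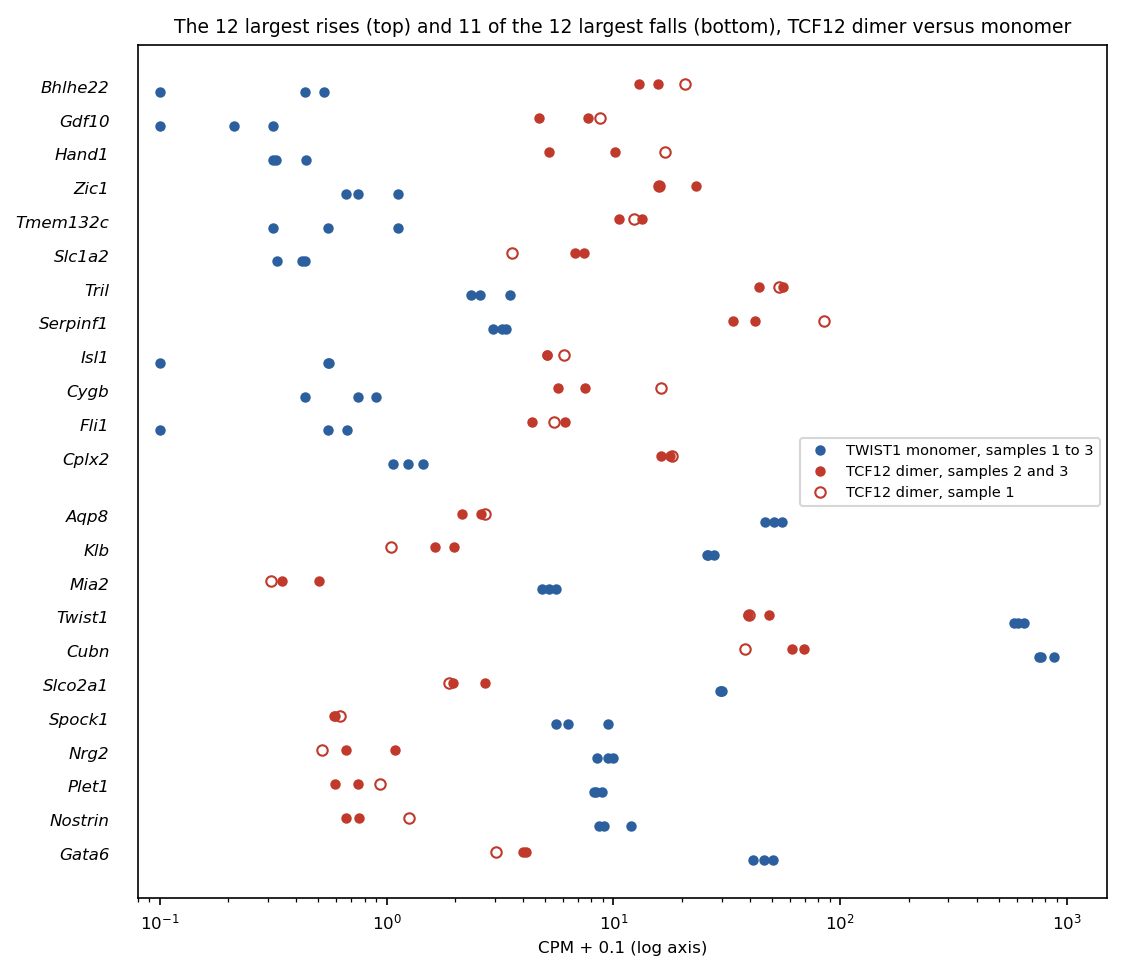
CPM plus 0.1 on a log axis for each sample of the 12 largest rises (upper block) and 11 of the 12 largest falls (lower block); blue points are the 3 monomer samples, filled red points dimer samples 2 and 3, and the open red point dimer sample 1. The red and blue points do not overlap for any gene, and the open point lies on the same side as the filled red points.

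Id1, Id2, Id3 and Id4, the inhibitors of E-protein dimers, all rose. Id1 was at 1060, 426 and 311 CPM in the dimer and 74.5, 74.4 and 65.2 CPM in the monomer (log2 fold change 3.07 ± 0.30, edgeR adjusted p = 2.66e-07, 2.38 without dimer sample 1). Id3 was at 632, 250 and 187 CPM against 45.1, 42.1 and 40.4 CPM (3.07 and 2.37). Both genes are short, and dimer sample 1 was the highest sample, but samples 2 and 3 alone were still over 4-fold above the monomer. Id2 was at 365, 259 and 187 against 64.2 to 68.7 CPM. Id4 was at 39.8, 26.3 and 20.5 against 3.07 to 3.83 CPM. The summed level of the 4 genes was 706.3 to 2097 CPM in the dimer and 173.1 to 191.4 CPM in the monomer. All 4 were also higher than in the TCF4 dimer, a comparison in which 2.07% of genes passed as higher, with a log2 difference of 1.31 for Id1, which was 0.61 without dimer sample 1. All 4 also passed as higher than in the TCF4 dimer without that sample (2.99% of genes did). Against the TCF3 dimer, 1 of the 4, Id1, was higher with all samples (0.87, where 9.06% of genes were) and none without dimer sample 1 (0.18 for Id1, adjusted p = 0.227). In the monomer line itself, Id1 was higher with doxycycline than without (log2 fold change 1.28, edgeR adjusted p = 0.031), and Id2 was too (0.97). Id3 passed there only in the fit without dimer sample 1 (1.03 in both fits, adjusted p = 0.127 and 9.11e-06). That sample is in neither group of this comparison and enters it only through the fit shared by all groups.

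Genes of the epithelial to mesenchymal transition were next. Of 22 transcription factors listed, 19 were tested. Of these, 15 passed as higher and 1 as lower, where 18.1% and 15.5% of all genes did, and 14 and 1 did so in both fits. The median log2 fold change was 2.33 (2.13 without dimer sample 1) against 0.05 for all genes. Snai1, the repressor of E-cadherin, was at 78.7, 59.8 and 37.1 CPM against 4.67, 5.40 and 4.84 CPM (3.55 ± 0.27, adjusted p = 1.07e-08). Zeb2, another such repressor, was at 12.6, 26.6 and 24.2 CPM against 3.98, 3.71 and 4.30 CPM. The dimer samples were higher without overlap in both, with sample 1 the highest for the short Snai1 and the lowest for the long Zeb2. Zeb1 (1.72), Snai2 (2.48), Prrx1 (1.64) and Prrx2 (2.99, and 2.31 without dimer sample 1), factors of mesenchyme, rose as well, as did Msx1 (2.34), Foxc1 (2.33), Meox2 (5.37) and Ebf2 (4.79). Foxf2 was the exception, falling from 0.86 to 1.37 CPM down to 0.105 to 0.246 CPM. Foxf1 passed only with all samples (adjusted p = 0.04, and 0.051 without dimer sample 1), and Msx2 and Tbx20 did not pass.

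Structural genes of mesenchyme moved less uniformly: 16 of 26 tested members passed as higher and 5 as lower (17 and 5 without dimer sample 1), with a median of 0.80 (0.69). Over all genes 18.1% and 15.5% did (22.3% and 20.1% without that sample). Cdh11, the cadherin of mesenchyme, was at 39.8, 66.5 and 52.3 CPM against 4.44, 3.38 and 3.33 CPM (3.83 ± 0.21, edgeR adjusted p = 7.5e-11). Vim, the intermediate filament vimentin, was at 362, 249 and 218 against 95.9, 93.6 and 89.7 CPM. Mmp2, a protease of collagens, was at 210, 200 and 182 against 70.9, 69.1 and 66.2 CPM. The samples of all 3 genes separated the groups without overlap. The N-cadherin gene Cdh2 was closer, at 34.4, 44.4 and 55.0 against 32.5 to 36.1 CPM. The 5 that fell were Sparc, Fn1, Col6a1, Tnc and Postn. Sparc, a matrix protein, was at 212 to 283 CPM against 654 to 749 CPM, and Postn (periostin) at 0.404 to 0.525 against 3.41 to 3.49 CPM. The summed level of the whole list was 1399 to 1503 CPM in the dimer and 1468 to 1561 in the monomer, so the groups overlapped in the sum.

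Epithelial junction and keratin genes were lower in most cases, by less than 2-fold with all samples. Of 20 tested, 12 passed as lower and none as higher with all samples, where 15.5% and 18.1% of all genes did. The counts were 14 and 1 without dimer sample 1 (20.1% and 22.3% of all genes), and the median was -0.45 (-0.48). Cldn6, a claudin of early embryonic epithelium, had a log2 fold change of -0.92 (-0.98), at 125 to 153 CPM against 258 to 275 CPM. Krt19, a keratin of simple epithelia, had one of -0.87 (-1.17), at 3.39 to 7.35 against 7.51 to 11.3 CPM. Cdh1 gave 621, 862 and 949 CPM against 751, 780 and 744 CPM. Its dimer samples lay on both sides of the monomer, and it did not pass with all samples (0.10, adjusted p = 0.483) but passed as higher without dimer sample 1 (0.26, adjusted p = 5.8e-05). In the same samples Snai1, which represses Cdh1, was over 6-fold above every monomer sample.

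Most of the listed genes of the primitive and visceral endoderm were lower in the dimer. This tissue is the extra-embryonic layer that surrounds the epiblast and takes up maternal nutrients. Of 24 such genes listed 22 were tested, and 16 passed as lower and 1 as higher (18 and 1 without dimer sample 1), with a median of -2.12 (-2.13). Over all genes 15.5% and 18.1% did (20.1% and 22.3% without that sample). Gata6, the early regulator of this lineage, was at 2.94, 4.02 and 3.87 CPM in the dimer and 41.3, 46.2 and 50.5 CPM in the monomer (-3.65 ± 0.16, edgeR adjusted p = 5.83e-12). Cubn, the endocytic receptor cubilin, was at 37.8, 61.1 and 69.4 against 765, 750 and 872 CPM (-3.82 ± 0.21, adjusted p = 9.71e-11). Lrp2, its partner megalin, was at 71.6, 131 and 201 against 1068 to 1269 CPM. The 2 groups were far apart in each. Gata4 was at 13.5 to 15.9 against 72.9 to 80.5 CPM, and Sox17 at 1.53 to 4.41 against 17.8 to 19.5 CPM. The exception was Alb (albumin), which rose from 0.228 to 0.45 CPM to 3.15 to 4.72 CPM. Later markers were mixed. Ttr and Apoe did not pass with all samples, and passed as lower only without dimer sample 1 (-0.96 and -0.67). Apob fell, by 2.2-fold (1.88-fold without dimer sample 1), and Apoa1 and Rbp4 did not pass. The summed level of the list was 785.5 to 1099 CPM in the dimer and 3171 to 3574 CPM in the monomer.

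Genes of parietal endoderm, and of the basement membrane it makes in quantity, were mostly lower too. Of 15 on this joint list, 11 passed as lower and 3 as higher in either fit, with a median of -1.53 (-1.39). Of all genes, 15.5% passed as lower and 18.1% as higher (20.1% and 22.3% without dimer sample 1). Lama1, a laminin chain, was at 86.3, 138 and 156 CPM against 603, 620 and 670 CPM (-2.31 ± 0.15, edgeR adjusted p = 1.47e-09). Col4a1, a collagen IV chain, was at 140, 200 and 198 against 791 to 849 CPM. Lamc1, Lamb1, Col4a2, Nid1, Nid2 and Hspg2 were lower in every dimer sample too. The 3 that rose were Fst, Stra6 and Snai1, none of which encodes a laminin, collagen IV or nidogen. Among 7 tested genes of gut and stomach epithelium, 6 passed as lower (median -3.34), all at low levels. Nkx6-3 had no count in the dimer, which allows up to 0.247 to 0.272 CPM, and 0.569 to 1.80 CPM in the monomer. Gkn1 (gastrokine) was at 0 to 0.082 against 1.37 to 2.58 CPM.

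Naive pluripotency genes, which mark the state before implantation, fell as a group, with 12 of 14 lower and none higher in either fit (median -1.86, and -1.84 without dimer sample 1). Of all genes, 15.5% passed as lower with all samples and 20.1% without dimer sample 1. Klf5 was at 4.09, 11.6 and 12.5 CPM against 55.8, 56.3 and 53 CPM (-2.52 ± 0.22, edgeR adjusted p = 6.49e-08). Tbx3 was at 5.04 to 6.81 against 27.4 to 28.8 CPM, and Esrrb at 17.6, 25.8 and 30.7 against 76.1 to 90.6 CPM. No dimer sample of these genes reached the monomer range. Nanog, by contrast, was at 42.8 to 69.6 against 51.2 to 59.4 CPM and did not pass (adjusted p = 0.9), nor did Dppa3. Core and formative genes were mixed, with 3 of 14 higher and 5 lower, where 18.1% and 15.5% of all genes were. The counts were 4 and 8 without dimer sample 1 (22.3% and 20.1% of all genes). Sox2 fell, at 132 to 153 against 221 to 237 CPM, and Otx2 rose, at 198 to 252 against 157 to 174 CPM. Dppa5a depended on 1 library: it was at 957, 340 and 315 CPM against 785 to 937 CPM (-0.66, adjusted p = 0.0586), and passed only without dimer sample 1 (-1.37).

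**Figure D3:**
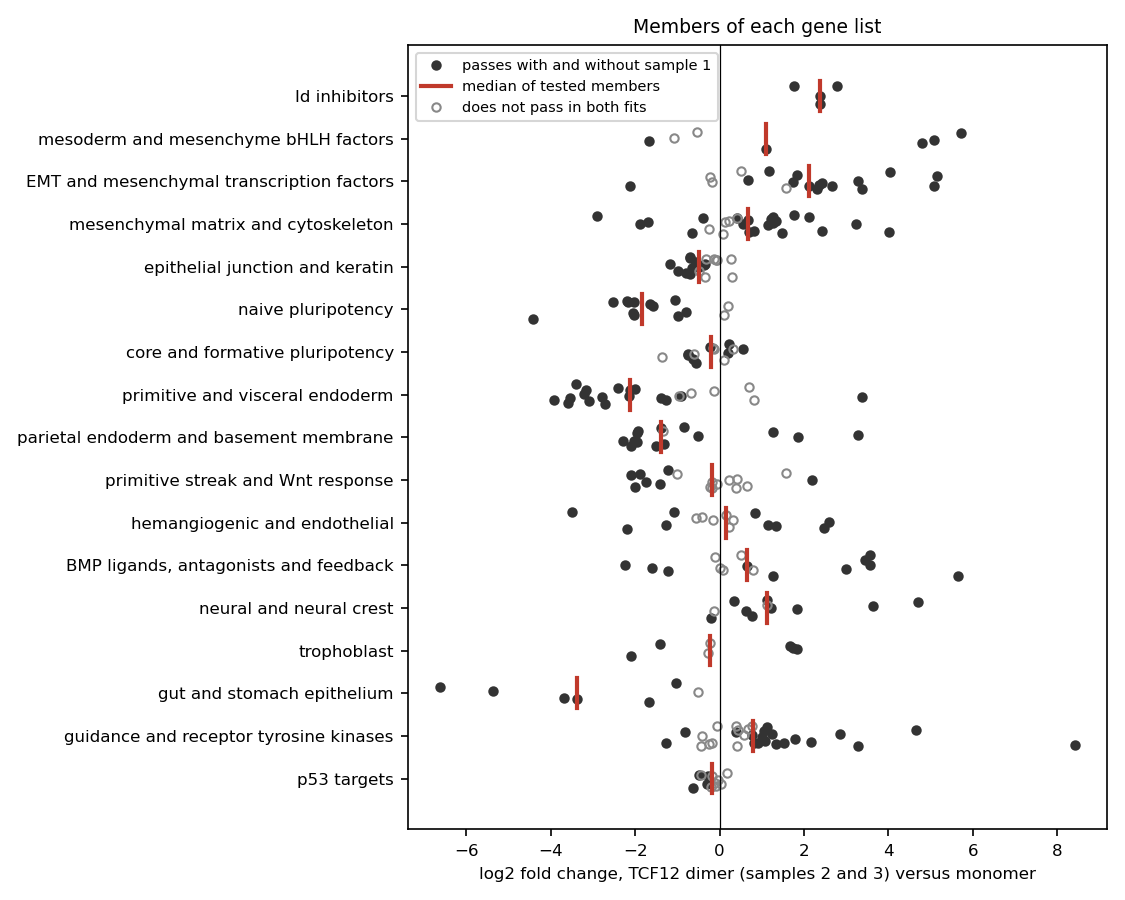
Log2 fold change of each tested member of 17 gene lists, TCF12 dimer samples 2 and 3 against the monomer (horizontal axis); filled points passed in the same direction with and without dimer sample 1, open points did not, and the red bar is the median of the list. Id genes and mesenchymal transcription factors lie mostly right of 0 (medians 2.37 and 2.13), and naive pluripotency, endoderm and gut lists mostly left of it (-1.84, -2.13 and -3.37).

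Genes of the BMP pathway, whose ligands signal through SMADs to Id genes, included large rises. Of 15 tested, 7 passed as higher and 3 as lower, where 18.1% and 15.5% of all genes did. The counts were 9 and 3 without dimer sample 1 (22.3% and 20.1% of all genes), and the median was 0.53 (0.64). The ligand gene Bmp7 was at 42.4, 33.3 and 23.2 CPM against 2.73, 2.48 and 1.93 CPM (3.78 ± 0.24, edgeR adjusted p = 6.87e-10). The feedback inhibitor Smad6 was at 14.0, 11.2 and 7.59 against 0.645 to 1.02 CPM, and Smad9 at 2.10 to 5.04 against 0.107 to 0.341 CPM. All 3 genes were without overlap. The ligand gene Bmp2 fell, at 1.07 to 1.61 against 3.22 to 4.67 CPM, as did Bmper and Grem1, whose products bind BMPs. Bmp4 (adjusted p = 0.35) and the inhibitor Smad7 (adjusted p = 0.67) did not pass. Among the BMP ligand genes named here, Bmp7 thus rose, Bmp2 fell and Bmp4 did not pass. Gdf10, described above as a factor of the TGF-beta family, rose as well.

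Of 17 primitive streak and Wnt response genes tested, 1 passed as higher and 6 as lower, where 18.1% and 15.5% of all genes did. The counts were 2 and 6 without dimer sample 1 (22.3% and 20.1% of all genes), and the median was -0.09 (-0.19). T, the streak marker brachyury, was at 0.839, 1.89 and 0.888 CPM against 1.14, 1.46 and 0.967 CPM and did not pass, and Eomes and Mixl1 did not pass. Both groups were low for T compared with the parental line, at 26.1 ± 3.0 CPM (SD, n = 3). The 6 that fell were Nodal, Lefty1, Lefty2, Fgf17, Lhx1 and Cdx2. Nodal, a ligand of the TGF-beta family, was at 11.7 to 13.3 against 24.6 to 30.3 CPM, and the genes of its inhibitors Lefty1 and Lefty2 were at 31.3 to 67.4 and 28.7 to 31.2 CPM against 94.8 to 116 and 73.5 to 81.1 CPM. Cdx2, a caudal homeodomain factor, had a log2 fold change of -1.27, and of -2.10 without dimer sample 1. Gsc (goosecoid), a homeodomain factor of the organizer, went the other way and rose, at 2.83, 2.46 and 1.70 CPM against 0.341, 0.225 and 0.752 CPM (2.34, edgeR adjusted p = 0.00018). Axin2, a feedback gene of Wnt signalling, passed as higher only without dimer sample 1 (0.38).

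Of 15 hemangiogenic and endothelial genes, 5 passed as higher and 4 as lower, where 18.1% and 15.5% of all genes did. The counts were 5 and 5 without dimer sample 1 (22.3% and 20.1% of all genes). Kdr, the VEGF receptor of early vascular progenitors, was at 5.56, 11.6 and 12.4 CPM against 2.39, 2.03 and 2.04 CPM. Gata2 was at 8.18, 5.74 and 5.97 against 0.797 to 1.24 CPM, and Etv2 and Cd34 rose too. Runx1, the regulator of blood formation, went the other way, at 0.903 to 1.26 against 11.3 to 12.5 CPM (-3.41 ± 0.18, edgeR adjusted p = 4.82e-11), and so did Cdh5, Pecam1 and Esam. Neural and neural crest genes were higher in 8 of 11 and lower in 1 (9 and 1), with Pax3 at 6.40, 9.19 and 6.54 against 0.341 to 0.86 CPM (3.53 ± 0.35, adjusted p = 3.04e-07) and Tubb3, Ets1, Nes and Pax6 higher by 0.63 to 1.06. Zic2 fell by 0.39 (0.21).

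The list of guidance molecules and receptor tyrosine kinases also holds other signalling genes, namely Apln, Aplnr, Cxcr4, Cxcl12, Rgs4 and the untested Rgs5. Of 30 tested members, 17 passed as higher and 4 as lower, where 18.1% and 15.5% of all genes did. The counts were 22 and 2 without dimer sample 1 (22.3% and 20.1% of all genes). Most of these transcripts are long, and the summed level was 497.5 CPM in dimer sample 1, 769.9 and 835.1 CPM in samples 2 and 3, and 488.3 to 495.2 CPM in the monomer. The PDGF receptor genes moved in opposite directions: Pdgfrb was at 20.3, 26.8 and 28.0 CPM against 6.02 to 6.37 CPM, and Pdgfra at 12.4, 19.9 and 16.7 against 41.5 to 45.6 CPM. Rgs4, a regulator of G-protein signalling, was at 2.94, 4.59 and 3.47 CPM in the dimer and had no count in any monomer library. Sema3a, a secreted guidance cue, was at 3.15, 5.00 and 6.86 against 0.683 to 0.967 CPM, and the receptors Epha7, Fgfr1 and Fgfr2 rose by 1.12, 0.65 and 0.83. Of 12 targets of p53, 4 passed as lower and none as higher (5 and 1), which is 4 of 12 passing where 33.5% of all genes did, and Cdkn1a did not pass. Of 7 tested trophoblast genes, 3 passed as higher and 2 as lower in either fit, none above 5 CPM, with the same shares of all genes as background. Ribosomal protein genes show the reach of dimer sample 1 in their median log2 fold change, 0.48 with it and -0.06 without it. Of 82 tested, 13 passed as higher and 1 as lower with it, where 18.1% and 15.5% of all genes did. Without it 1 and 11 did, where 22.3% and 20.1% of all genes did. None of these counts was above the share of all genes.

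The monomer line differed from the parental line without induction. Uninduced monomer samples were compared with parental samples, which did receive doxycycline. None of these 6 samples is in the comparison of dimer and monomer, although the monomer line is on one side of both. Between them 2854 genes passed (19.9%, 10.5% higher and 9.43% lower in the uninduced monomer line). That split of 1504 higher and 1350 lower was 1164 and 1650 when counts were scaled by library size alone. Of these, 1803 also passed between dimer and monomer in the opposite direction, which is 63.2% of the one list and 37.6% of the other, and 51 passed in the same direction (1.79% and 1.06%). The 1803 comprised 1027 genes lower in the dimer and higher in the uninduced monomer line, and 776 the other way. Without dimer sample 1 the opposite set was 3365 genes, 63.3% and 55% of the lists, of 5312 that passed between uninduced monomer and parental line (36.8%, 18.7% higher and 18.1% lower). The remaining 2945 genes that passed between dimer and monomer (61.4%) did not pass between uninduced monomer and parental line, and 2635 (43.1%) did not without dimer sample 1. Between induced and uninduced monomer samples 286 genes passed (2%), and 890 without dimer sample 1 (6.17%). Dimer sample 1 is in no group of these comparisons within the monomer and parental lines. It enters them through the fit shared by all groups. The common spread of that fit (biological coefficient of variation) was 0.12 with it and 0.0539 without it. The smaller counts are therefore not a measure of how little the groups differ.

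The largest falls and rises were looked up in this comparison. Of the 12 largest falls, 11 were higher in the uninduced monomer line than in the parental line, Twist1 being the exception. Cubn, for example, was at 894 ± 130 CPM in the uninduced monomer line and 160 ± 14 CPM in the parental line (SD, n = 3). Of the 12 largest rises none was higher and 2 were lower. Primitive and visceral endoderm genes were higher in the uninduced monomer line in 14 of 22 and lower in 1. Naive pluripotency genes were higher in 11 of 14 and lower in 1. For parietal endoderm and basement membrane genes it was 11 of 15 and 1, and for gut genes 6 of 7 and none. The Id genes were higher in none of 4 and lower in 1, and the mesenchymal transcription factors higher in 2 of 19 and lower in 3. Without dimer sample 1 the primitive and visceral endoderm counts were 16 and 1 and the naive pluripotency counts 12 and 2. The counts of the other 4 lists and of the largest rises and falls were the same numbers. Of all genes, 10.5% were higher and 9.43% lower with all samples, and 18.7% and 18.1% without dimer sample 1, so the share of mesenchymal factors that were higher was near the background.

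The dimer samples were also set beside the parental line, which shares no monomer sample; 2213 genes passed as higher (15.5%) and 1651 as lower (11.5%), and 2263 (15.7%) and 2104 (14.6%) did without dimer sample 1. All 12 of the largest rises were higher than in the parental line, and 11 of the 12 largest falls were lower, with Twist1 again the exception, in either fit. Id1 was 4.25 log2 units above the parental line (3.55 without dimer sample 1) and Snai1 3.38 (3.11). The mesenchymal transcription factors were higher in 14 of 19 and lower in 1, with a median of 2.18, and 13 and 1 with 2.16 without dimer sample 1. The endoderm genes were higher in 2 of 22 and lower in 14, with a median of -0.70 where it was -2.12 against the monomer, and 2 and 15 with -1.03 without dimer sample 1. Naive pluripotency genes were higher in none of 14 and lower in 10 (median -0.69, against the monomer -1.86), and in none and 12 without dimer sample 1 (-0.70). Parietal endoderm and basement membrane genes were higher in 4 of 15 and lower in 7 (median -0.36, against the monomer -1.53). Without dimer sample 1 these counts were 3 and 8 (-0.25). Lama1 did not pass against the parental line (-0.06, edgeR adjusted p = 0.79, and 0.15, adjusted p = 0.202, without dimer sample 1). Streak and Wnt genes were higher than in the parental line in none of 17 and lower in 15, with a median of -2.73 where it was -0.09 against the monomer, and all 17 were lower without dimer sample 1 (-2.57). The 24 genes were chosen on the comparison with the monomer, so their size against the parental line is not an independent measure.

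**Figure D4:**
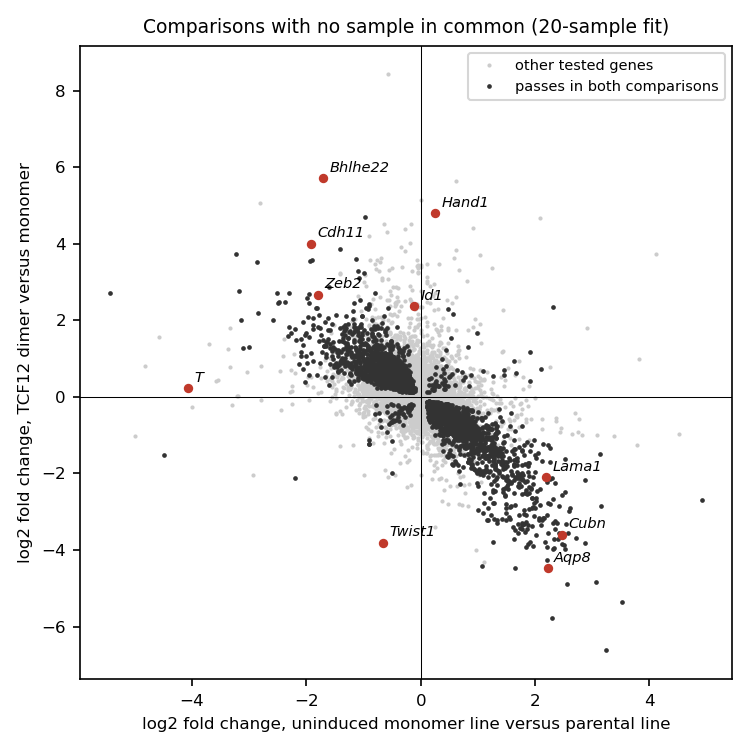
Log2 fold change of TCF12 dimer against monomer (vertical axis, dimer samples 2 and 3) and of the uninduced monomer line against the parental line (horizontal axis) for every tested gene; dark points passed in both comparisons and named genes are red. Most dark points lie in the upper left and lower right, Cubn, Aqp8 and Lama1 are in the lower right, and Id1 and Hand1 lie near 0 on the horizontal axis.

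Among the other dimers, the TCF4 dimer had the fewest passing genes against the TCF12 dimer, 464 (3.24%), with 2197 for the homodimer (15.4%) and 2686 for the TCF3 dimer (18.8%). These became 687 (4.76%), 3054 (21.2%) and 3607 (25%) without dimer sample 1. These comparisons share the TCF12 dimer samples with those above. The largest rises and falls were chosen on those samples, so their counts below are not independent of the choice. Of the 12 largest rises, 11 were higher in the TCF12 dimer than in the homodimer (8.6% of all genes were), 8 than in the TCF4 dimer (2.07%) and 3 than in the TCF3 dimer (9.06%). Without dimer sample 1 these counts were 11 (11.3%), 9 (2.99%) and 4 (12.4%), and 2 genes, Serpinf1 and Cygb, were lower than in the TCF3 dimer (12.6%). Of the 12 largest falls, 12 were lower than in the TCF3 dimer (9.71%), 6 than in the homodimer (6.75%) and 1, Aqp8, than in the TCF4 dimer (1.17%). Without dimer sample 1 these counts were 12, 5 (9.87%) and 1 (1.77%). Gata6 averaged 27.2 ± 3.3 CPM with TCF3, 4.53 ± 0.19 with TCF4 and 5.10 ± 0.87 CPM as the homodimer (SD, n = 3). Snai1 averaged 45.4 ± 14 CPM with TCF3, 26.9 ± 3.0 with TCF4 and 4.50 ± 0.40 CPM as the homodimer, and the TCF12 dimer did exceed the TCF4 dimer for Snai1 (1.12, edgeR adjusted p = 0.013, and 0.85 without dimer sample 1).

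**Figure D5:**
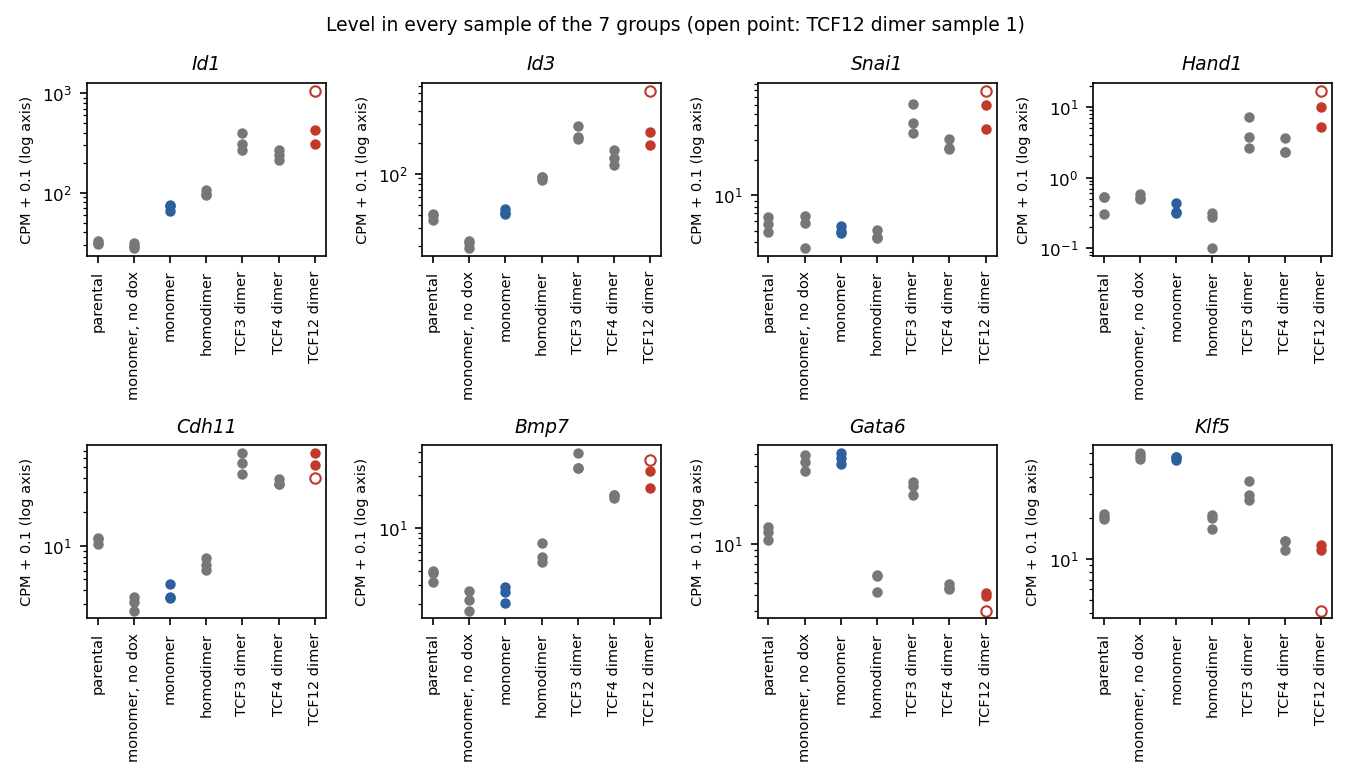
CPM plus 0.1 (log axis) of 8 genes in each of the 3 samples of 7 groups; the monomer is blue, the TCF12 dimer red (open point, sample 1) and the other groups grey. Id1, Id3, Snai1, Cdh11 and Bmp7 are highest in the TCF3, TCF4 and TCF12 dimers, and Gata6 and Klf5 are highest in the monomer line with or without doxycycline.

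A set of 65 genes (0.454%) passed against the monomer and, in the same direction, against each of the other 3 dimers, 33 higher and 32 lower. Without dimer sample 1 the set was 98 genes (0.679%), and 39 genes were in both, 20 higher and 19 lower. Hand1, Zic1, Msx1 and Bambi, a decoy receptor that dampens BMP signalling, were among the 20. Aqp8, a water channel, and Postn and Kit, the receptor for stem cell factor, were among the 19. Id1 was in the set of 65 only, being higher than in the TCF3 dimer with dimer sample 1 but not without it. This set is the least stable of the results, as leaving out dimer sample 3 or 2 gave 1668 or 524 genes in place of 65.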

How the data were processed

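RNA-seq of embryoid bodies from 21 samples was deposited as raw counts per gene symbol, 1 table of 48321 symbols per sample. The submitters' processing notes name FastQC, TopHat2, HTSeq and the builds mm10 and GRCm38. Strand handling is not given in the sources used here. As for date-like symbols, 25 appear in each of 18 files and none in the 3 files of the TCF12 dimer, so files were joined by position. This handling cannot be told apart from the group.

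From the counts, edgeR 4.0.16 (R 4.3.3) was fitted to all 21 samples with 1 mean per group, TMM factors and filterByExpr (count 10, total 15), and again to 20 samples without TCF12 dimer sample 1. Tests were quasi-likelihood F-tests with Benjamini-Hochberg adjustment over all tested genes. Standard errors derive from the F statistic. Exon lengths were the union of exons in GENCODE M21, found for 97.2% of tested genes. On simulated counts of 14033 genes, 84 of 100 genes changed 2-fold and 100 of 100 changed 4-fold were recovered, with 16 false calls. The simulated counts had the same dispersion for every gene, only the planted changes and no length bias. These figures therefore check the code and are not error rates of the real comparison.

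Genes named were Twist1, Tcf3, Tcf4, Tcf12, the 12 largest rises and 12 largest falls (passing in both fits, samples not overlapping, at least 5 CPM in the higher group) and members of the gene lists. Some genes that meet these rules are left out of the text. The comparison and the lists were chosen with earlier results of these data known. Samples were not treated as paired by replicate number. Alternatives were DESeq2 1.42.0, limma 3.58.1 voom weights, other normalization and filters, a length offset, other controls, a replicate block and leaving out each replicate. Floors of 3 counts cover counting error only.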

Additional observations from a re-analysis of the deposited data

Results flagged for a closer look

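Hand1, Zic1 and Aqp8, genes among the largest changes, differed between the TCF12 dimer and each other dimer by the test of that difference (edgeR, adjusted p under 0.05 in all 9 tests), so the change against the monomer was larger in the TCF12 dimer line. Hand1 was higher than in the homodimer by 6.18 on the log2 scale, than in the TCF3 dimer by 1.22 and than in the TCF4 dimer by 1.99. Zic1 was higher by 3.36, 0.55 and 1.38 in the same order. Aqp8 was lower, with log2 differences of -1.52, -3.20 and -1.02. All 3 genes also passed each of these tests without dimer sample 1. The difference from the TCF3 dimer was then 0.75 for Hand1 (edgeR adjusted p = 0.0417), 0.64 for Zic1 and -3.25 for Aqp8. For Hand1, TCF12 dimer sample 3 at 5.08 CPM was within the spread of the TCF3 dimer, 4.47 ± 2.42 CPM (SD, n = 3).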

How the results depend on the processing

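The count of 4799 genes lay between 3681 and 6417 when single dimer or monomer replicates were left out, and from 4465 (library size only) to 6299 (voom weights) under the other settings fitted to 21 samples against the monomer. The length offset gave 5629. Fitting only the 6 samples of the 2 groups gave 1516. With another control the count was 5302 (uninduced monomer line) or 3864 (parental line). Leaving out dimer sample 1 as well was added after seeing the data: it gave 5718 when only the 2 groups were fitted and 6272 with the length offset. No gene passing with all samples passed in the opposite direction under any setting that kept the monomer as control. Deviations from the group mean correlated at -0.0674, -0.221 and 0.184 in same-numbered dimer and monomer samples. In differently numbered samples they ran from -0.251 to 0.265. In the dimer these deviations carry the length bias of sample 1, so whether same-numbered samples shared a culture or batch was not tested. A replicate block gave 4797 genes.

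The genes set apart from every other dimer (65) were 127 with DESeq2, 42 with library size only, 339 with no filter, 200 with voom weights, 127 with the length offset and 134 with that offset and without dimer sample 1. Leaving out single replicates gave 45 to 1668, with 98 without dimer sample 1. Uninduced monomer against parental line gave 5752 genes with voom weights in place of 2854. For the 27 named genes, 445 of 459 alternative values kept direction and call. The other 14, of Tcf12 (6) and Tcf4 (8), kept direction but did not pass. Voom gave dimer sample 1 a weight of 0.0328, against 0.651 to 1.85 for the others.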

Other observations

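Some of the 39 genes that separated the TCF12 dimer from the monomer and from each other dimer in both fits are named here, chosen after their values were seen. Fbln5, a protein of elastic fibres, was at 29.6, 30.8 and 22.0 CPM in the TCF12 dimer, 1.40 to 2.39 CPM in the monomer, 18.9 ± 4.3 with TCF3, 16.3 ± 1.3 with TCF4 and 16.6 ± 1.7 CPM as the homodimer (SD, n = 3). Mfap4, a microfibril protein, was at 69.4, 55.5 and 49.9 CPM against 6.02 to 9.68 CPM in the monomer. Its level was 41.7 ± 8.0 CPM with TCF3, 33.3 ± 1.2 with TCF4 and 13.2 ± 1.1 CPM as the homodimer. The log2 difference of Mfap4 from the TCF3 dimer was 0.48, and 0.34 without dimer sample 1. In both genes the TCF12 dimer samples were above all monomer samples.

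Among the genes that fell, Map7, which stabilises microtubules, was at 13.0, 19.7 and 21.7 CPM against 44.9 to 46.4 CPM in the monomer and 26.1 ± 0.39 CPM with TCF4. Gldc, an enzyme of glycine breakdown, was at 143, 218 and 228 CPM against 330 to 343 CPM in the monomer and 265 ± 9.0 CPM with TCF4. Dimer sample 1 was the lowest in both, and the other 2 samples were below the monomer as well.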
